A study of Rattus norvegicus with 24 samples.

Results

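The vehicle livers are those of the rats that received corn oil without ANIT, alpha-naphthylisothiocyanate, a compound that injures bile ducts. They were chosen by label alone, as the samples labelled 24h_vehicle or 120h_vehicle, and make up 12 of the 24 rats of the series. All were male Sprague Dawley rats, an outbred stock, labelled 8 weeks old, given corn oil once into the stomach at 10 ml/kg and killed with CO2 24 h (6 rats) or 120 h (6 rats) later. Every rat of both groups, like the ANIT rats dosed at 50 mg/kg, was fasted overnight for about 18 h and received BrdU, a label of DNA synthesis, at 100 mg/kg about 2 h before necropsy. The labels call both groups controls for ANIT injury, so what they describe is the fasted, corn oil dosed, BrdU injected liver and not the untreated fed one. Liver RNA of each rat was amplified from 50 ng and read on 1 array, and rats are numbered 1 to 6 within each group only to name them.

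The liver makes most plasma proteins, the bile acids and much of the body's cholesterol, and it clears steroids and foreign compounds through cytochrome P450 enzymes, transferases and reductases. Its genes also follow feeding and fasting, time of day, inflammatory signals and, in the rat more than in most species, the pulses of growth hormone that differ between the sexes. In males, spaced pulses activate the transcription factor STAT5b, which raises feedback inhibitors such as Socs2 and Cish and lowers the repressor Bcl6. Such genes can differ from one animal to the next at the moment of death. The questions put to the vehicle rats were which genes gave the brightest signals, whether the groups differed and which genes differed most from rat to rat.

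Values are log2 expression values, so that a difference of 1 is a doubling of signal. The spiked hybridisation controls, bacterial and phage transcripts, averaged 11.16 ± 0.38 (SD, n = 6 arrays) at 24 h and 10.86 ± 0.21 at 120 h, and ranged from 10.48 to 11.69. Their mean, the control level, alone accounted for 48.4% of the variance over genes, against 15.99% for the groups alone and 6.62% for the groups once the control level was removed. Of 13438 genes, 6362 (47.3%) had a slope on it at a limma adjusted p under 0.05, with 2008 rising and 4354 falling. The groups' control levels overlapped, and their difference missed the threshold in an exact two-sided permutation test (p = 0.12, adjusted p = 0.27 over 6 array measures). The array SD (p = 0.14), the array median (p = 0.067) and the 3'/5' ratios of beta-actin, GAPDH and hexokinase, signs of RNA quality (p = 0.76, 0.79 and 0.62), had exact permutation p-values that all stood at 0.27 or above after adjustment. Every change and residual SD below therefore comes from a linear model of group and control level. The ranges, medians and overlaps of the rats are of log2 values as deposited, with the control level not removed. Rat 5 of 24 h, a high rat for several genes below, had the highest control level (11.69) and array median (5.54) of the 12. It also had the lowest array SD (1.84) and the lowest log2 3'/5' ratio of hexokinase (-0.86). Rats 4 and 3 of 24 h came next in control level (11.34 and 11.32).

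Markers of hepatocytes gave bright signals in every rat. The 15 measured hepatocyte markers had a median level of 12.69, and their mean per rat lay between 12.10 and 12.26. The 9 cholangiocyte markers, of bile duct cells, had a median of 3.999, the 6 neutrophil markers 4.97, the 14 T and NK cell markers 4.80, the 12 pancreatic acinar genes 4.75 and the 10 adipocyte and muscle genes 4.38. The 9 macrophage and Kupffer cell markers had a median of 8.57, the 6 sinusoidal endothelial markers 8.22 and the 12 stellate and fibroblast markers 6.82. Probe sets bind with unequal strength, so these levels give no shares of cell types. In whole tissue, fewer cells of a type and less RNA per cell cannot be told apart.

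The 25 brightest genes were mostly genes of secreted hepatocyte proteins. Albumin (Alb), the main plasma protein, came first with a mean of 13.24, and the others ran down to apolipoprotein E (Apoe) at 12.66, next to a 26th gene at 12.65. This order, too, describes the brightness of probe sets and not the abundance of transcripts. Alb read 13.19 in its lowest and 13.31 in its highest 24 h rat (median 13.26), and 13.18 to 13.31 (median 13.20) at 120 h. The rats overlapped fully, and their whole range was 1.10-fold.

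Carriers of the blood followed. Haptoglobin (Hp), which binds free haemoglobin, averaged 13.18, transthyretin (Ttr), which carries thyroid hormone and retinol binding protein, 13.09, and Gc, the vitamin D binding protein, 12.96. The lipid carriers Apoc3 (13.13), Apoc1 (12.96), Apoh (12.95) and Apoa2 (12.69) were among them, as were Ambp (12.87), Ahsg (12.80), the clotting inhibitor Serpinc1 (12.82), the fibrinogen chain Fgb, complement C3, Serpina1 and Itih4. The rest were the urinary protein gene Rup2 (13.02), the mitochondrial respiratory chain gene COX1 (12.94), the alcohol dehydrogenase Adh1c (12.78), the fatty acid binding protein Fabp1 (12.76), Mgst1, Phyh, B2m and the metallothioneins Mt1 (12.73) and Mt2A (12.73), small metal binding proteins. Log2 signals this high lie near the top of the scale, which reached 13.498, and whether that narrowed differences between rats was not tested.

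None of the 25 brightest genes was among the 25 most variable. The most variable of them was Mt2A, with a residual SD of 0.133. It read 12.48 to 13.00 (median 12.59) at 24 h and 12.69 to 12.88 (median 12.84) at 120 h, and rat 5 of 24 h alone stood above 12.9. The albumin promoter, known from textbooks for a site of the hepatocyte factor HNF1 close to the start, is shown as the sequence before the brightest gene. It is the 250 bases upstream of the RefSeq start on GRCr8 at chr14:17906980-17907229, minus strand, with the capitals marking GTTAAT, the conserved part of an HNF1 site.
Alb: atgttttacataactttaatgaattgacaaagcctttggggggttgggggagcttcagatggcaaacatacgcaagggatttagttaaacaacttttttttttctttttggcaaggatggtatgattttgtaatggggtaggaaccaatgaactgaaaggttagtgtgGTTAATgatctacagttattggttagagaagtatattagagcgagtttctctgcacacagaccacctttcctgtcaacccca
The match began at -82 from the start. Searched on both strands, GTTAAT was found in 6.45% of 33469 rat promoters of this length, so the match alone marks nothing particular to Alb.

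No gene passed the threshold between vehicle rats of 120 h and of 24 h. Of 13438 genes, 0 (0.0%) had a limma adjusted p under 0.05. At an unadjusted p under 0.05 there were 1020 (7.59%), 468 higher at 120 h (3.48%) and 552 lower (4.11%). With groups alone in the model the count was again 0, with 1744 at an unadjusted p under 0.05. The alternatives that kept all 12 rats gave between 0 and 3 genes. Leaving out a single rat gave 0 or 1, namely Gpt without rat 1 of 24 h (limma adjusted p = 0.0057), Serpina5 without rat 6 of 120 h (0.048) and Csad, which makes the taurine precursor, without rat 6 of 24 h (0.047). With all rats, Csad had a difference of -0.97 ± 0.19 (limma adjusted p = 0.227, from 0.047 to 0.52 over the alternatives). The 95% interval of a change reached 0.241 to either side for the median gene, with no adjustment for the number of genes. In the values as deposited, the 2 groups did not overlap at all for 88 genes (0.655%). The genes that follow were named after their values were seen, for their small p, and none is a call.

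The smallest p belonged to Tkfc, triokinase, which phosphorylates glyceraldehyde from fructose. It read 8.43 to 9.26 (median 8.79) in the 24 h rats and 8.17 to 8.31 (median 8.29) in the 120 h rats. All 120 h rats lay below all 24 h rats, and they lay within a narrower band. The difference was -0.69 ± 0.10 (SE; limma adjusted p = 0.132), and over the alternatives adjusted p ran from 0.022 to 0.51.

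Serpina5, the protein C inhibitor, read 4.04 to 4.63 (median 4.46) at 24 h and 4.83 to 5.57 (median 5.29) at 120 h, a difference of 0.90 ± 0.15 (limma adjusted p = 0.152). The groups did not overlap, although both lay at a low signal. Without rat 6 of 120 h the adjusted p was 0.048, and over all alternatives it ran from 0.018 to 0.51.

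Gpt, the alanine aminotransferase that feeds alanine carbon into glucose production, read 8.05 to 9.17 (median 8.24) at 24 h and 9.27 to 9.78 (median 9.36) at 120 h. Rat 1 of 24 h stood alone at 9.17, next to the 120 h rats, and the other 5 lay at or below 8.34. The difference was 0.88 ± 0.16 (limma adjusted p = 0.189). Without that rat it was 1.25 with an adjusted p of 0.0057, the lowest of a range that reached 0.51.

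Ehhadh, the peroxisomal enzyme of fatty acid oxidation, read 10.49 to 11.22 (median 10.90) at 24 h and 11.62 to 11.93 (median 11.69) at 120 h, without overlap (0.68 ± 0.13, limma adjusted p = 0.189). Dnaja4, a co-chaperone, read 6.26 to 6.83 at 24 h and 6.89 to 7.34 at 120 h (0.58 ± 0.10, limma adjusted p = 0.189). Gas5, a non-coding host gene of small nucleolar RNAs, read 9.58 to 9.96 and 10.21 to 10.42 (0.45 ± 0.08, limma adjusted p = 0.189). In all of them each 120 h rat was above each 24 h rat.

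The largest of these differences was that of Scd, stearoyl-CoA desaturase, which puts the double bond into newly made fatty acids. It read 7.35 to 8.99 (median 8.66) at 24 h and 9.62 to 11.36 (median 10.13) at 120 h, a difference of 1.85 ± 0.39 (95% interval 1.01 to 2.69, limma adjusted p = 0.245). No 24 h rat reached the lowest 120 h rat. Its residual SD of 0.75 was also high, so rats within a group differed as well. Of the 17 measured genes of fatty acid synthesis, 11 had a difference above 0 and 6 below, with a median of 0.04. Over all 13438 genes, 6639 lay above 0 and 6799 below. Elovl5, an elongase, had a difference of 0.61 ± 0.14, while Pklr, the liver pyruvate kinase, had -0.63 ± 0.13 and Fads1, a desaturase of polyunsaturated chains, -0.50 ± 0.17 (limma adjusted p = 0.293, 0.227 and 0.477).

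Genes of cholesterol synthesis lay mostly below 0. Of 16 measured, 15 had a difference below 0, against 6799 of all 13438 genes. Among the 16, 9 (56.3%) had an unadjusted p under 0.05, all lower at 120 h, against 4.11% of all genes. The median was -0.34, against -0.0017 over all genes, and 0 passed the adjusted threshold. Cyp51, the sterol 14-demethylase, read 10.60 to 11.62 (median 10.81) at 24 h and 9.32 to 10.49 (median 9.97) at 120 h, without overlap (-1.04 ± 0.24, limma adjusted p = 0.293). Squalene epoxidase, Sqle, had a difference of -0.80 ± 0.25, the isomerase Idi1 -0.91 ± 0.34, Msmo1 -0.89 ± 0.31, Hsd17b7 -0.52 ± 0.15 and farnesyl diphosphate synthase, Fdps, -0.55 ± 0.25. The exception was Pmvk, at 0.006 ± 0.193.

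A single rat stood high in this pathway. After group and control level were removed, rat 4 of 24 h had the highest residual of the 12 rats in 12 of the 16 genes (75.0%), against 12.2% of all genes. Idi1 read 8.31 in that rat and at most 6.90 in the other 24 h rats, and Fdps read 10.96 against at most 9.90. Without it the differences remained below 0, at -0.94 for Cyp51 and -0.72 for Idi1.

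**Figure D1:**
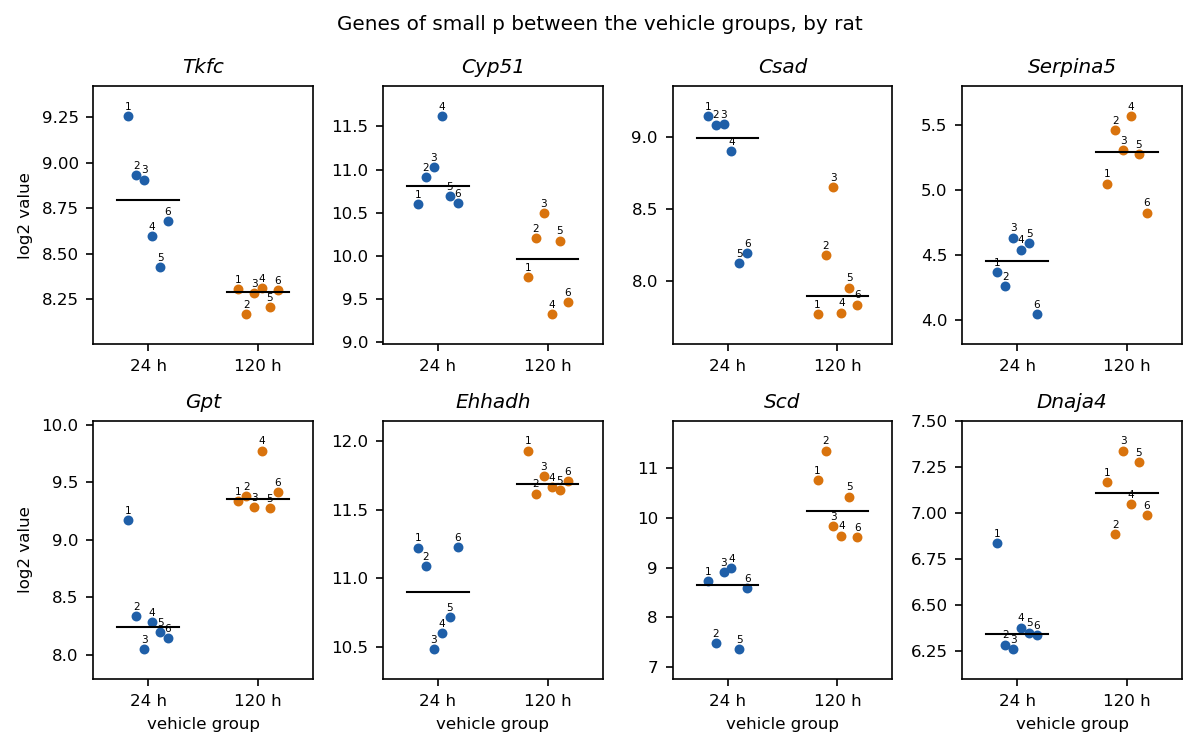
Log2 expression values of 8 genes with small p between the vehicle groups, 1 point per rat with its number, blue at 24 h and orange at 120 h, with a bar at each group median (n = 6 rats each). The Scd points run from 7.35 to 8.99 at 24 h and from 9.62 to 11.36 at 120 h, and rat 1 of 24 h stands apart for Gpt at 9.17.

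Several other lists lay mostly to one side of 0, with no call. Of all 13438 genes, 6639 lay above 0 and 6799 below. All 10 heat shock genes had a difference above 0 (median 0.27), 3 of them at an unadjusted p under 0.05, against 3.48% of all genes. They include the chaperones Hspa8 (0.29 ± 0.12) and Hspe1 (0.32 ± 0.13). Of the 16 genes of ketogenesis and fatty acid oxidation, 14 lay above 0 (median 0.11). Ehhadh and Fgf21, a fasting hormone (0.82 ± 0.30), had an unadjusted p under 0.05 above 0, and the ketone body enzyme Bdh1 below 0 (-0.28 ± 0.10). Of all genes, 3.48% had one above 0 and 4.11% one below. Acute phase protein genes lay below 0 in 18 of 23 (median -0.06), with A2m at -0.90 ± 0.39 and the lipopolysaccharide binding protein Lbp at -0.45 ± 0.21. Of the 23, 3 had an unadjusted p under 0.05 below 0. Mitosis genes lay above 0 in 18 of 23 (median 0.07), with Mki67 at 0.55 ± 0.23 and Cdk1 at 0.41 ± 0.16, and 3 had an unadjusted p under 0.05 above 0. Genes of DNA replication lay below 0 in 12 of 20, near the share of all genes.

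Clock genes pointed both ways. Dbp read 4.81 to 6.02 at 24 h and 6.03 to 6.39 at 120 h, so the groups were just apart (0.55 ± 0.14, limma adjusted p = 0.354). Per2 (0.67 ± 0.20) and Usp2 (0.73 ± 0.24) also lay above 0, and Npas2 (-0.62 ± 0.18) and Bhlhe40 (-0.22 ± 0.10) below it. The median over the 18 measured clock and output genes was 0.03. Hours of necropsy are not in the labels used here, and their part in these values was not tested.

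Genes of the liver zones also had no call. Of 13 periportal genes Sds, which breaks down serine (0.80 ± 0.26), Gls2, the liver glutaminase (0.54 ± 0.13), Ass1 of the urea cycle (0.42 ± 0.14) and Hsd17b13 (0.27 ± 0.10) had an unadjusted p under 0.05 above 0, and Cdh1 below 0. Of 11 pericentral genes, Cyp1a2 (-0.50 ± 0.13), Glul (-0.28 ± 0.09), Rgn (-0.31 ± 0.10) and Lect2 (-0.29 ± 0.10) had one below 0 and 0 had one above it. These are 4 of 13 periportal genes higher at 120 h, against 3.48% of all genes, and 4 of 11 pericentral genes lower, against 4.11%. The list medians were 0.02 and -0.03, and no adjusted p was under 0.293.

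Most genes varied little from rat to rat. The residual SD, with 9 degrees of freedom, had a median of 0.175, a 10th percentile of 0.103 and a 90th of 0.283. Without the control level in the model the median was 0.226. Only 129 genes (0.960%) had a residual SD above 0.5 and 12 above 1. It was largest at middling signals, with a median of 0.202 among the fifth 10% of genes by level against 0.159 in the dimmest and 0.114 in the brightest 10%. The 96 genes with a mean above 12 had a median of 0.073.

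**Figure D2:**
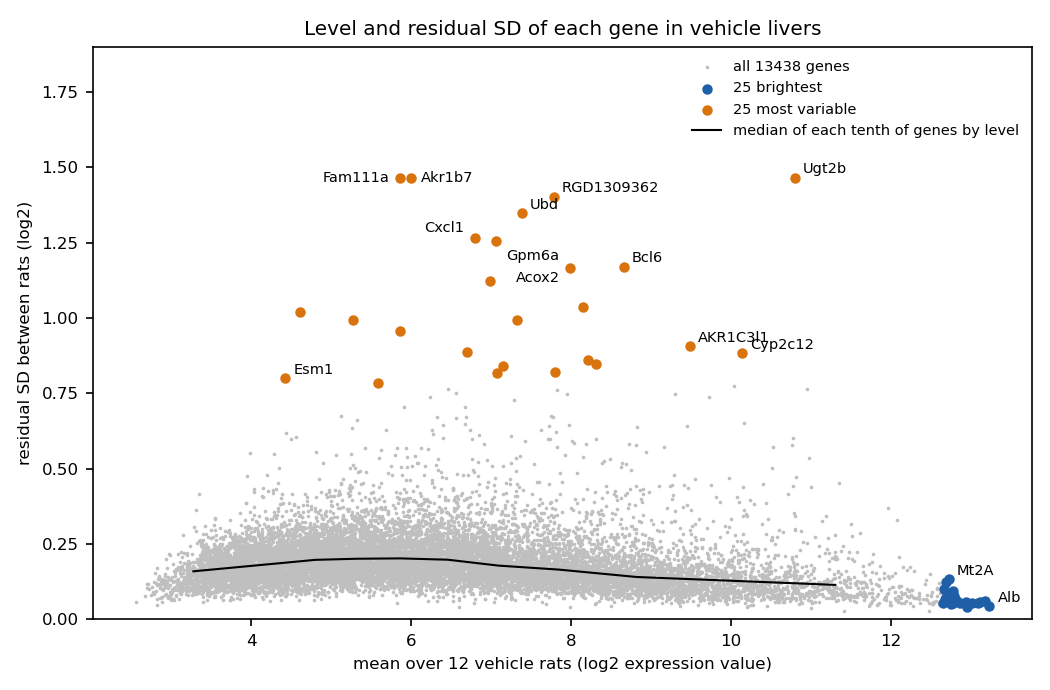
Residual SD between rats, in log2 units, against the mean log2 value over the 12 vehicle rats for each of 13438 genes in grey, with the 25 brightest genes in blue, the 25 most variable in orange and the median of each 10% of genes by level as a line. The orange points lie at or above 0.783 over a wide range of levels, and every blue point lies at or below 0.133.

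The steadiest gene at or above the median level was Ywhae, a 14-3-3 adaptor protein, with a residual SD of 0.027. It read 11.35 to 11.45 at 24 h and 11.40 to 11.42 at 120 h, and the rats overlapped. Acsl1, which activates long chain fatty acids, came next with a residual SD of 0.028, although its groups did not overlap, at 12.33 to 12.46 and 12.51 to 12.59 (0.11 ± 0.07, limma adjusted p = 0.772). That SE is moderated towards the variance of all genes, with no trend on level, and is not the spread of these rats alone. The adjusted p is therefore no sign that the groups were alike for Acsl1. Adss2 (0.037), Gc (0.039) and Nptn (0.039) followed. Lists of hepatocyte products had median residual SDs of 0.067 for hepatocyte markers, 0.077 for plasma protein genes and 0.083 for apolipoproteins, near the 0.073 of all genes with a mean above 12.

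Other lists had higher medians. Genes listed as female-predominant had a median residual SD of 0.382, and 7 of 11 lay in the top 10% of all genes (10.0% by construction). All rats here were male, so the sex bias of these members could not be checked. Interferon response genes had 0.319 (13 of 20 in the top 10%), cholesterol synthesis genes 0.318 (9 of 16), immediate early genes 0.300 (10 of 20), xenobiotic enzymes of the CAR, PXR and AhR pathways 0.275 (4 of 10), glucocorticoid and fasting response genes 0.260 (8 of 16) and growth hormone dependent or male-predominant genes 0.242 (8 of 18). Markers of single cell types stayed nearer to the overall median, at 0.161 for macrophages, 0.172 for cholangiocytes, 0.194 for T and NK cells and 0.234 for neutrophils.

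**Figure D3:**
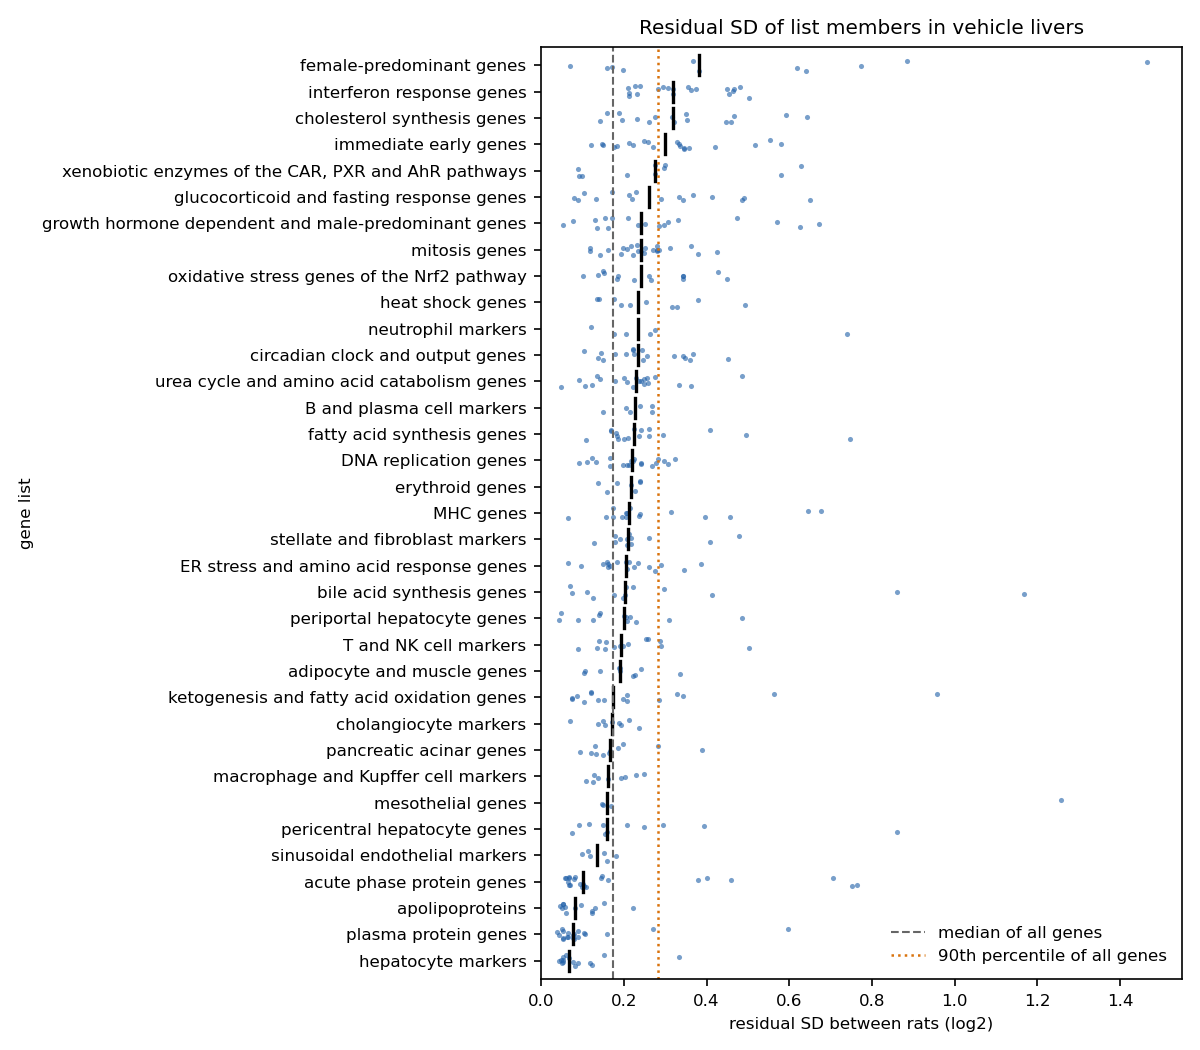
Residual SD between vehicle rats, in log2 units, of each measured member of 35 gene lists (points) with the list median as a black bar, ordered by that median. The dashed and dotted lines are the median (0.175) and 90th percentile (0.283) of all genes. The list medians run from 0.067 for hepatocyte markers to 0.382 for genes listed as female-predominant.

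The 25 most variable genes were chosen by their residual SD, which is therefore a description with no test. It fell from 1.47 for the first to 0.783 for the 25th, Esm1 and A2ml1 being the last inside, and the next gene, the sulfotransferase Sult2a6, had 0.773. Of the 25, 18 had a mean at or above the median gene. By value, the highest rat was a 120 h rat for 20 of the 25 and the lowest rat for 16. Also by value, rats 1 and 5 of 120 h were each the highest for 5, and rat 1 of 120 h was the lowest for 5. Rats 1, 2 and 6 of 24 h were the highest by value for 0. These counts leave group and control level in, and their share over all genes was not computed. They therefore do not tell which group varied more. By residual, for one, rat 6 of 24 h was the highest for Acsm5 (0.99, against 0.96 in rat 1 of 120 h).

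The variable genes below are grouped by function and not by rank of residual SD. Enzymes of steroid and foreign compound metabolism are given first. Ugt2b, a UDP-glucuronosyltransferase that couples steroids and drugs to glucuronic acid, read 10.74 to 11.99 (median 11.87) at 24 h and 7.39 to 11.88 (median 10.34) at 120 h. Rats 2, 4 and 6 of 120 h stood at 7.99, 9.30 and 7.39, and the other 9 rats at 10.74 or above, a 24.2-fold range. The difference between groups, -2.03 ± 0.76, was not called (limma adjusted p = 0.526). A second probe set of the gene had a residual SD of 1.92 and ranked the rats the same way (Pearson r = 0.99 and Spearman rho = 1, each with a permutation p of 1e-05, the lowest that 100000 permutations can reach, and an adjusted p of 2.7e-05 over 8 tests). Its r was 0.98 without the 2 rats farthest from the median. Genes of this family are close copies, and whether the probe sets also bound other members was not tested.

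Akr1b7, an aldo-keto reductase of aldehydes, had the second highest residual SD, 1.47. It read 5.20 to 8.81 (median 6.10) at 24 h and 4.42 to 9.19 (median 4.92) at 120 h. Rat 6 of 120 h and rat 5 of 24 h stood far above the other 10 rats, which stayed at or below 6.76. Without rat 6 of 120 h the residual SD was 0.80, so that rat carried much of it.

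AKR1C3l1, a related reductase, differed by a single animal. It read 9.45 to 10.18 (median 9.65) in the 24 h rats and 9.34 to 10.19 in 5 of the 120 h rats, with rat 3 of 120 h at 6.86. Its residual SD of 0.91 dropped to 0.204 without that rat. Rat 3 of 120 h also had the lowest control level of the 12.

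Cyp2c12, a steroid hydroxylase known as the female form of its family in the rat, read 9.89 to 10.99 (median 10.50) at 24 h and 7.72 to 11.21 (median 9.77) at 120 h. Rat 1 of 120 h was the low one at 7.72, and without it the residual SD of 0.88 became 0.58. The mean of 10.14 is a bright signal for a female form in male rats. Whether the Cyp2c12 probe set also bound other members of the family was not tested. Inmt, which methylates indole amines, read 6.53 to 9.50 (median 7.51) at 24 h and 7.38 to 9.80 (median 8.66) at 120 h, with the groups overlapping. Sult2a6, a sulfotransferase of steroids and bile acids, ranged from 8.86 to 11.30, and Cyp3a9 from 8.29 to 10.52.

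**Figure D4:**
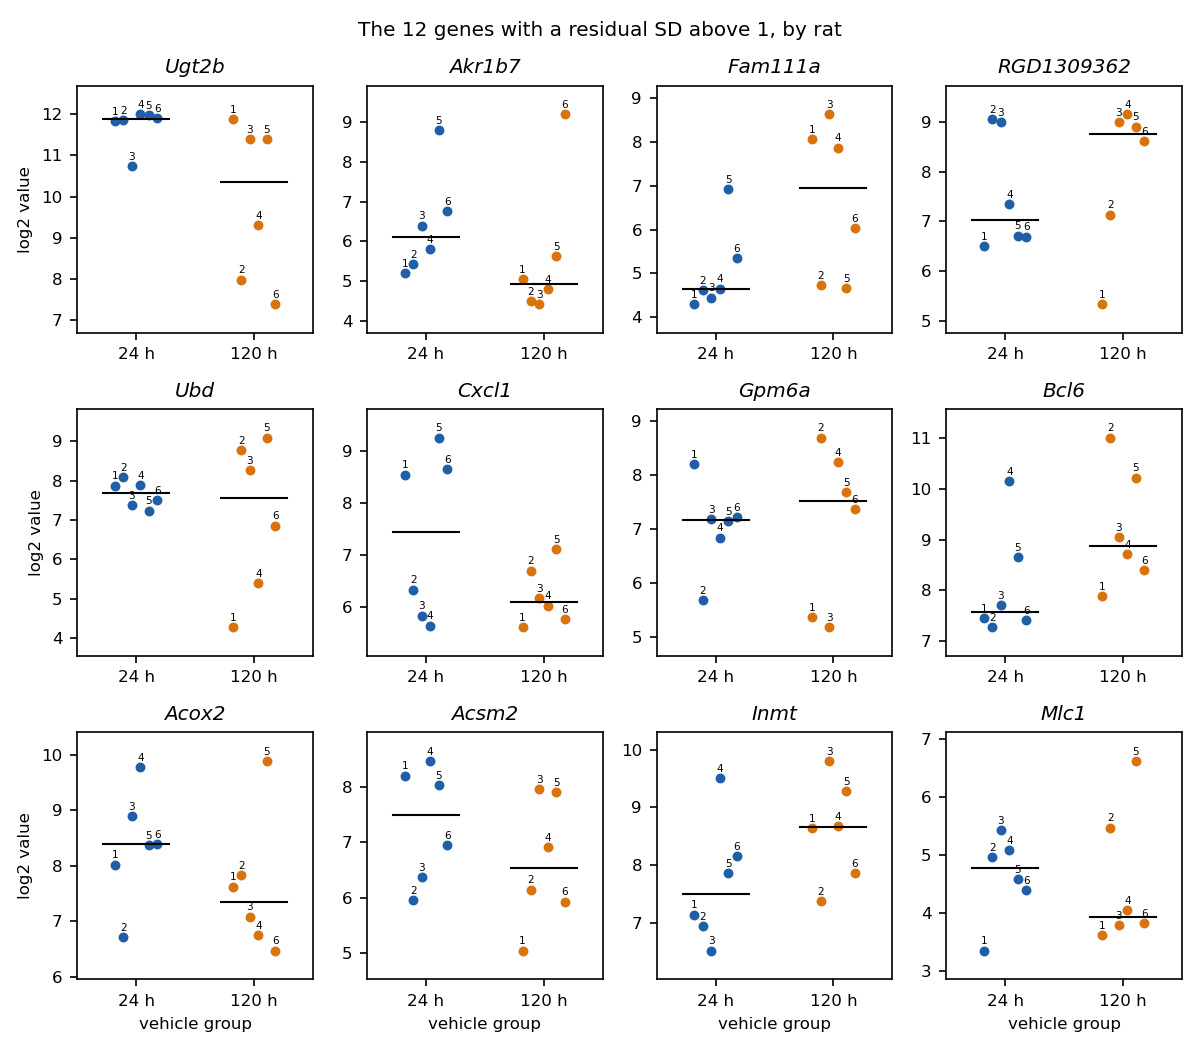
Log2 expression values of the 12 genes with a residual SD above 1, 1 point per rat with its number, blue at 24 h and orange at 120 h, with a bar at each group median (n = 6 rats each). Ugt2b is low in rats 2, 4 and 6 of 120 h, between 7.39 and 9.30, and Cxcl1 is high in rats 1, 5 and 6 of 24 h, between 8.55 and 9.26.

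Regulators of the growth hormone axis also varied. Bcl6, the repressor, read 7.27 to 10.15 (median 7.58) at 24 h and 7.89 to 11.004 (median 8.88) at 120 h, a 13.3-fold range. Rat 4 of 24 h and rats 2 and 5 of 120 h were at 10.15 or above, and the other 9 were at or below 9.04. The feedback inhibitor Socs2 read 6.14 to 7.81 (median 7.01) at 24 h and 5.35 to 7.39 (median 6.72) at 120 h. The same 3 rats gave its 3 lowest values, 6.14, 5.35 and 6.09.

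Onecut1, the liver factor HNF6, read 5.83 to 8.49 (median 7.49) at 24 h and 6.11 to 8.55 (median 7.28) at 120 h. Rat 4 of 24 h and rat 2 of 120 h were its lowest by value. By residual, rat 3 of 120 h (-1.15) was as low as rat 2 (-1.12), although its Bcl6 residual was only 0.16. Rat 5 of 120 h, high for Bcl6, had an Onecut1 residual of 0.02. A second probe set with a residual SD of 0.61 followed the same rats (Pearson r = 0.93, Spearman rho = 0.95, permutation p = 1e-05 and 2e-05, adjusted p = 2.7e-05 and 4e-05, r = 0.91 without the 2 farthest rats). Cux2, a homeobox gene known to be female-predominant in rodent liver, ranged from 3.63 to 5.66, at a low signal.

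Igf1, the growth factor that growth hormone raises in the liver, had a brighter signal. It read 12.003 to 12.39 at 24 h and 11.96 to 12.43 at 120 h, with a residual SD of 0.171, above the 0.073 of the median gene with a mean above 12. Its spread cannot be set against that of Bcl6 and Socs2, whose signals lay where the median residual SD over all genes was larger. Cyp2c11, the main male form of its family, read 11.62 to 12.07 and 11.86 to 12.13, with a residual SD of 0.136.

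Across the 12 vehicle rats, the residuals of Bcl6 and Socs2 had a Pearson r of -0.93, and -0.93 and -0.98 within the 24 h and the 120 h rats. Onecut1 had an r of 0.81 with Socs2 and -0.78 with Bcl6. These pairs were chosen after the vehicle values were seen, so they are given without a p and were tested in the 12 ANIT rats. There, Bcl6 and Socs2 had an r of -0.32 (rho = -0.29, permutation p = 0.32 and 0.35, adjusted p = 0.58 and 0.59 over 20 tests). Onecut1 and Socs2 had an r of 0.48 (rho = 0.57, permutation p = 0.12 and 0.056, adjusted p = 0.23 and 0.14), and Onecut1 and Bcl6 0.21 (permutation p = 0.51, adjusted p = 0.70). None of these relations passed the threshold in the ANIT rats, and whether vehicle and ANIT rats differed in them was not tested.

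Cish, another feedback inhibitor of the axis, ranged from 5.29 to 7.66, with a residual SD of 0.67, and rat 2 of 120 h was its lowest. Its pairs were also chosen after values were seen. With Socs2 its r was 0.61 in the vehicle rats (rho = 0.31), 0.44 without the 2 farthest, 0.31 at 24 h and 0.72 at 120 h. In the ANIT rats that r was 0.13 (permutation p = 0.70, adjusted p = 0.82). With Bcl6 its r was -0.57 in the vehicle rats (rho = -0.24) and 0.003 without the 2 farthest. In the ANIT rats this r was 0.08 (permutation p = 0.80, adjusted p = 0.85), with 0.87 at 24 h and -0.82 at 120 h. The Cish promoter is shown because STAT5 acts on it directly through sites of the form TTCNNNGAA. The 250 bases before the RefSeq start lie on GRCr8 at chr8:116850719-116850968, plus strand, with the matches in capitals.
Cish: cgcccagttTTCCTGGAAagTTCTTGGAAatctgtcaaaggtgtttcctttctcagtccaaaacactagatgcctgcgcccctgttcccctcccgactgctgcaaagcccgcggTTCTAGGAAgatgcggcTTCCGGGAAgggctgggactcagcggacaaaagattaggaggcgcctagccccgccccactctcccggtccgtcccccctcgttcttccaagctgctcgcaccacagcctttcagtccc
The 4 matches began at -241, -230, -136 and -119. A palindrome in form, the motif reads the same on both strands, and 7.67% of 33469 rat promoters of this length held it at least once and 2 of them 4 times or more. The Bcl6 and Igf1 windows had no match, which says only that these letters were not in them.

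Inflammatory genes form another group, and not all those given here were among the 25 most variable. Cxcl1, a chemokine that attracts neutrophils, read 5.63 to 9.26 (median 7.44) at 24 h and 5.60 to 7.10 (median 6.09) at 120 h. Rats 1, 5 and 6 of 24 h stood at 8.55, 9.26 and 8.65, above all other rats, and without rat 5 the residual SD of 1.26 became 0.82. The same 3 rats gave the 3 highest values of Stat3, the factor downstream of interleukin 6, at 8.76, 8.66 and 8.49. Its other rats lay between 7.49 and 8.28. Since rat 5 of 24 h also had the highest control level, a part of its array in these values is possible and was not tested.

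Cxcl1 and Stat3 had a Pearson r of 0.95 over the vehicle residuals, a pair also picked after its values were seen. Within the vehicle groups r was 0.98 at 24 h and 0.64 at 120 h. In the ANIT rats the r was 0.74 and rho 0.86 (permutation p = 0.0051 and 0.00077, adjusted p = 0.034 and 0.015 over 20 tests), and r was 0.71 without the 2 farthest rats. Within the ANIT groups it was 0.83 at 24 h and 0.79 at 120 h.

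Of the 23 acute phase protein genes, with a median residual SD of 0.102, 6 lay in the top 10%. Those 6 had means from 5.30 (Il1rn) to 10.95 (Hamp), below the list's median level of 11.97, and the median residual SD over all genes was larger at middling signals than at bright ones. A2m, alpha-2-macroglobulin, a protease inhibitor of the rat acute phase, read 6.19 to 7.59 (median 7.01) at 24 h and 5.23 to 7.57 (median 6.13) at 120 h. Hamp, hepcidin, the hormone that limits iron uptake, read 10.65 to 12.48 (median 11.34) at 24 h and 9.01 to 11.77 (median 10.49) at 120 h, an 11.04-fold range. Lcn2, lipocalin 2, ranged from 4.75 to 7.48. Hp, in the same list at a mean of 13.18, spanned 1.15-fold.

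The calprotectin genes S100a8 and S100a9, made by neutrophils, were a pair fixed for testing. S100a8 read 5.23 to 7.499 (median 6.52) at 24 h and 5.31 to 6.86 (median 6.15) at 120 h. S100a9 read 5.01 to 6.23 and 4.999 to 5.57. Rat 5 of 24 h was the highest for both. Their residuals correlated over the 12 rats (Pearson r = 0.91, Spearman rho = 0.86, permutation p = 1.1e-04 and 8.3e-04, adjusted p = 0.0018 and 0.0066 over 16 tests). Without the 2 farthest rats r was 0.90, and within the groups 0.90 and 0.94. With no control level in the model r was 0.68 (permutation test, adjusted p = 0.12, in a range over the alternatives from 0.00032). S100a8 alone of the 6 measured neutrophil markers lay in the top 10% by residual SD, and their mean level per rat ran from 4.54 to 5.29. The part of neutrophil number in these values was not tested.

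Lipid and bile acid enzymes form a further group. Cyp7a1, the rate-limiting enzyme of bile acid synthesis, read 6.64 to 9.10 (median 8.18) at 24 h and 7.53 to 9.34 (median 8.14) at 120 h, a 6.48-fold range with overlapping groups. Acox2, which shortens the bile acid side chain and branched fatty acids, read 6.72 to 9.78 (median 8.38) at 24 h and 6.47 to 9.89 (median 7.36) at 120 h. Rat 4 of 24 h and rat 5 of 120 h were its high rats. The other 11 measured bile acid synthesis genes were steadier, and the list median was 0.202.

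Acsm2 and Acsm5, mitochondrial synthetases that activate medium chain acids, did not share their rats. Acsm2 was lowest in rat 1 of 120 h, at 5.05, and highest in rat 4 of 24 h, at 8.46. Acsm5 was highest in rat 1 of 120 h, at 9.10, and lowest in rat 3 of 120 h, at 6.37. Acot1, a cytosolic thioesterase of fasting and PPAR alpha activation, read 4.23 to 7.24 (median 5.90) at 24 h and 4.98 to 7.48 (median 5.88) at 120 h.

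Cyp7a1 followed Acly, ATP citrate lyase, which supplies acetyl-CoA for fat and cholesterol. Acly ranged only from 9.66 to 10.23, with a residual SD of 0.168, below the median gene. Its mean of 9.93 lay in the brightest 10% of genes, whose median residual SD was 0.114, so it was not steady for its level. The residuals of the 2 genes had a Pearson r of 0.96 in the vehicle rats, a pair chosen after its values were seen. In the ANIT rats r was 0.72 and rho 0.71 (permutation p = 0.0053 and 0.012, adjusted p = 0.034 and 0.0498). It was 0.52 without the 2 farthest rats, 0.36 within the 24 h and 0.97 within the 120 h ANIT rats, so it rested in part on those animals.

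**Figure D5:**
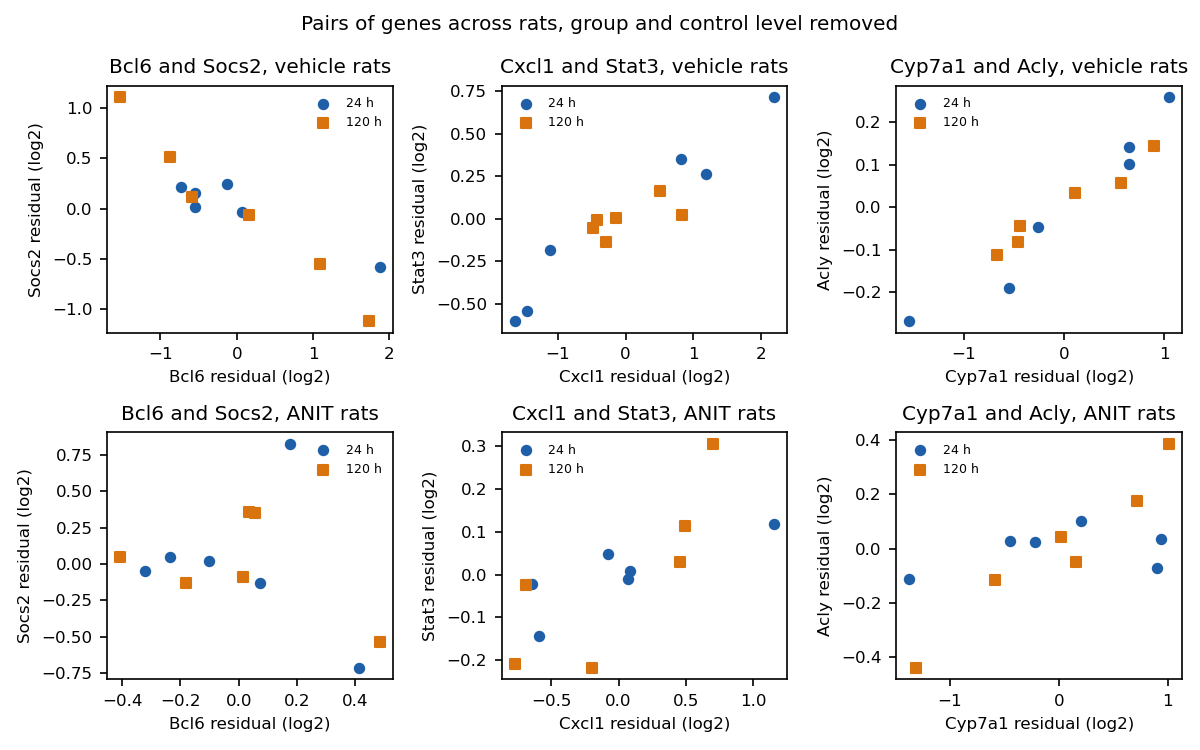
Residuals of pairs of genes in log2 units after group and control level were removed, with 1 point per rat, blue circles at 24 h and orange squares at 120 h, for 12 vehicle rats (top row) and 12 ANIT rats (bottom row). Bcl6 and Socs2 have a Pearson r of -0.93 in vehicle and -0.32 in ANIT rats, Cxcl1 and Stat3 0.95 and 0.74, and Cyp7a1 and Acly 0.96 and 0.72.

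Fasn and Sqle, of fatty acid and sterol synthesis, were another fixed pair. Their residuals had a Pearson r of 0.75 (permutation p = 0.0068, adjusted p = 0.036) and a Spearman rho of 0.65 (permutation p = 0.025, adjusted p = 0.099). Without the 2 farthest rats r was 0.33, and without rat 4 of 24 h it was 0.40 (permutation test, adjusted p = 0.78, in a range over the alternatives from 0.0045), so the relation rested on that rat. Without rats 1 or 6 of 24 h or rat 3 of 120 h, the permutation test gave adjusted p-values of 0.052, 0.12 and 0.051. It was 0.96 within the 24 h rats and 0.27 within the 120 h rats. Fasn read 8.60 in rat 4 of 24 h and at most 7.67 in the other 11. The other 6 fixed pairs measured, among them Igf1 with Cyp2c11 (r = -0.07), Dbp with Per1 (0.08) and Mki67 with Top2a (0.22), all had adjusted p-values of 0.98.

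Genes with ties to interferon or immunity were also among the 25. No member of the interferon response list was, since its highest residual SD was 0.50. Ubd, an interferon and TNF induced ubiquitin-like modifier, read 7.24 to 8.09 (median 7.69) at 24 h and 4.27 to 9.09 (median 7.56) at 120 h. The 24 h rats lay close together, and rats 1 and 4 of 120 h stood far below at 4.27 and 5.398. RGD1309362, listed with the synonym Ifgga1, read 6.51 to 9.05 (median 7.03) and 5.34 to 9.15 (median 8.75). Rat 1 of 120 h was its lowest as well.

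Among the 20 measured interferon response genes, none had an unadjusted p under 0.05 between groups, and the median difference was -0.03. Rat 2 of 120 h had the highest residual in 12 of the 20 (60.0%), against 6.68% of all genes, and rat 1 of 120 h the lowest in 10 (50.0%), against 8.16%. The mean of the list was 6.74 in rat 2 and 5.95 in rat 1 of 120 h, while the 24 h rats ran from 5.94 to 6.46. Irf7, the factor that amplifies the response, read 8.19 in rat 2 of 120 h and 6.52 to 7.29 in the others. Mx1, an antiviral GTPase, ranged from 5.42 to 6.75, with rat 2 of 120 h the highest.

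Oas1a, the sensor of double-stranded RNA, read 4.53 to 5.68 (median 4.91) at 24 h and 4.68 to 6.33 (median 5.55) at 120 h, again with rat 2 the highest. Its promoter is shown because interferon acts on it through a response element, searched here as a pair of GAAA boxes 2 bases apart, on both strands. It lies on GRCr8 at chr12:41330216-41330465, plus strand, and the capitals mark a pair of overlapping matches.
Oas1a: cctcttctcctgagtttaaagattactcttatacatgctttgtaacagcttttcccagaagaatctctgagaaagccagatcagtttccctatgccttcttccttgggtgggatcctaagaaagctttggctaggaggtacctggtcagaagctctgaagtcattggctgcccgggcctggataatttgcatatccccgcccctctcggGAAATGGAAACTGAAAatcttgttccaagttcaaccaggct
The matches began at -41 and -35, and 3.41% of 33469 rat promoters held the motif at least once. The Irf7 window held it 1 time, and the Mx1 window had no match. Irf7 and Oas1a had a Pearson r of 0.76 in the vehicle rats, 0.40 without the 2 farthest, and 0.20 in the ANIT rats (permutation p = 0.52, adjusted p = 0.70).

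Of the 16 measured MHC genes, 5 lay in the top 10% by residual SD. Rat 1 of 120 h had the lowest residual in 6 of the 16 (37.5%), against 8.16% of all genes, and rat 3 of 120 h the highest in 4 of the 16, against 6.82%. RT1-Ba, a class II chain, read 7.42 to 9.32 (median 8.11) at 24 h and 7.15 to 7.92 (median 7.72) at 120 h, with rats 5 and 6 of 24 h at 9.27 and 9.32. Its partner Cd74, the invariant chain, ranged only from 9.24 to 10.17, and the fixed pair had an r of 0.08 (permutation test, adjusted p = 0.98). RT1-N2 ranged from 3.30 to 5.94, lowest in rat 5 of 120 h. Such loci are polymorphic in outbred rats, and probe sets made for a single sequence can read alleles unequally, which was not tested.

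Pira2, an immunoglobulin-like receptor of myeloid cells, ranged from 3.36 to 6.27, and Fcrla, a B cell protein, from 6.16 to 8.91. Neither was matched by its next probe set (Pearson r = 0.15 and -0.21, Spearman rho = 0.05 and -0.01, permutation p = 0.64 and 0.50, adjusted p = 0.85 and 0.80). Those probe sets had residual SDs of only 0.198 and 0.195. Among the 6 measured B and plasma cell markers, 0 lay in the top 10% by residual SD, and their mean per rat ran from 5.12 to 5.47.

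The remaining genes of the 25 belonged to no list or to lists that were otherwise steady. Fam111a, a protease that acts at replication forks, read 4.29 to 6.93 (median 4.63) at 24 h and 4.66 to 8.63 (median 6.95) at 120 h. Rats 1, 3 and 4 of 120 h stood at 7.87 or above. The difference of 1.94 ± 0.76 had a limma adjusted p of 0.543. Gpm6a, a membrane glycoprotein, read 5.68 to 8.19 (median 7.16) and 5.17 to 8.69 (median 7.52). It also stands among mesothelial markers, of which it alone of 4 measured lay in the top 10%, and their mean per rat ran from 4.74 to 5.77.

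Cdh17, a cadherin of liver and intestine, read 5.23 to 7.27 (median 6.39) at 24 h and 4.95 to 8.40 (median 7.44) at 120 h. Its residual SD of 0.89 became 0.48 without rat 2 of 120 h. F11r, a tight junction protein, read 6.71 to 9.18 (median 8.53) and 7.37 to 9.04 (median 8.60). Esm1, an endothelial proteoglycan, read 3.38 to 4.28 (median 3.69) and 3.82 to 6.42 (median 5.29), with 4 of the 120 h rats above all 24 h rats (1.10 ± 0.42, limma adjusted p = 0.526). Mlc1 ranged from 3.36 to 6.63, A2ml1 from 4.64 to 7.17 and LOC100910497 from 5.64 to 8.02, each with overlapping groups.

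For the 5 most variable genes, the genes whose residuals ran closest over the 12 rats were searched among 13437 others. They were Tmem203 (Pearson r = 0.94) and Elof1 (0.94) for Ugt2b, Mmp13 (0.94) and Dot1l (0.91) for Akr1b7, Igfbp2 (0.94) and Pax8 (0.94) for Fam111a, Ly86 (0.92) and Olfml2b (0.91) for RGD1309362, and Papss1 (0.94) and Unc119b (0.94) for Ubd. Between 2 and 5 genes per search reached 0.9. Their own residual SDs ran from 0.085 for Elof1 to 0.62 for Igfbp2.

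The genes that varied in one group of rats also varied in others that had no part in choosing them. The 25 genes of highest residual SD among the 24 h rats, fitted alone, stood at a median percentile of 99.7 in the 120 h rats, and 24 of 25 lay in the top 10% there. The exception was Pdk4, a fasting-induced kinase, at the percentile of 52.3. Chosen in the 120 h rats, 22 of 25 lay in the top 10% of the 24 h rats, with a median percentile of 99.5, and AKR1C3l1 was the lowest at 41.8. The sets shared 9 genes of 25. Over all genes the Spearman correlation of the residual SDs of the 2 groups was 0.32, across genes, which are not independent replicates.

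In the ANIT livers the order was also partly kept. Of the 25 genes chosen in the 24 h vehicle rats, 20 lay in the top 10% of the 24 h and 22 in that of the 120 h ANIT rats. Ugt2b stood at the percentile of 99.1 in the 24 h vehicle rats and Onecut1 at 99.9, and both were at 99.6 or above in each ANIT group. Bcl6, at 99.9 in both vehicle groups, stood at 89.1 and 93.9 in the ANIT groups. Stat3 was at 99.4 in the 24 h vehicle rats and at 21.9 in those of 120 h.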

How the data were processed

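Liver RNA of 24 rats was read on 24 one-colour arrays, and the 12 vehicle arrays were analysed here, with the ANIT arrays only where named. The authors deposited log2 values, 1 per probe set and array, and the submitters' processing notes name RMA and Partek. For both, versions and settings were not given in the sources used here. Values were taken as deposited. Of 31139 probe sets, 19068 named 1 gene in the platform annotation, 573 named several and 11498 had none listed. Each of 13438 genes took its brightest single-gene probe set over all arrays.

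The control level is the mean of 9 AFFX-r2-Ec and AFFX-r2-P1 probe sets. Log2 values were fitted on group and control level with limma 3.58.1 (lmFit, eBayes) in R 4.3.3, with calls at p under 0.05 after Benjamini-Hochberg adjustment over 13438 genes. The residual SD is that of the same model. Changes are 120 h minus 24 h, with the moderated SE (n = 6 and 6). Array measures were compared by exact permutation over 924 assignments, and correlations of residuals by 100000 permutations, two-sided, with Python 3.11.15, numpy 2.4.6 and scipy 1.17.1. The model was also run on simulated data with independent noise for each gene and array. Real residuals were partly shared between genes, so that run cannot give the rate of false calls here. Alternatives were groups alone, array SD, all 24 arrays, quantile and median scaling, probe set means, a filter on dim genes, a robust trended fit and each rat left out.

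Genes named are the 25 brightest and 25 most variable, the variable ones at or above the median level, the steadiest 5, list members of smallest p or highest SD, fixed pairs and, after values were seen, others of small p or like pattern. The members and the 35 lists (553 genes, 458 measured) were chosen with earlier results of these data known. Promoters are RefSeq sequences of GRCr8, and genes were matched by symbol. Depth does not apply to arrays, and their number limits precision. Rats are separate animals, and no batch is given in the labels.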

Additional observations from a re-analysis of the deposited data

Results flagged for a closer look

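Within a group of 6 rats, the highest or lowest rat was compared with the rest by Dixon's gap test over 66 genes and 6 array measures. It marked 12 of 144 groups. Chance marks about 1 in 20 groups, but many of these genes were chosen for their spread or small p, so the count cannot be read against that share. Rats 5 of 24 h (Mt2A, 13.004 against 12.64 in the next), 6 of 120 h (Akr1b7, 9.19 against 5.62), 4 of 24 h (Idi1, 8.31 against 6.90) and 2 of 120 h (Fasn, 7.396 against 7.04) were the highest of their groups. Alb was highest in rat 2 of 120 h at 13.31, against 13.22. Dnaja4 was highest in rat 1 of 24 h at 6.83, against 6.38, and so was Gpt, at 9.17 against 8.34. In the 120 h rats Gpt was highest in rat 4, at 9.78 against 9.41, and Gas5 in rat 1, at 10.42 against 10.29. The lowest rats were rat 3 of 24 h for Ugt2b, at 10.74 against 11.83, rat 3 of 120 h for AKR1C3l1, at 6.86 against 9.34, and rat 6 of 24 h for LOC100910497, at 5.89 against 7.31.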

How the results depend on the processing

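The count of 0 called genes between vehicle groups became 3 with all 24 arrays and the control level, 1 with all 24 arrays and groups alone, 3 with the robust trended fit, and 1 without the 2 arrays of lowest control level, an alternative added after the data were seen. Leaving out 1 rat gave 0 to 1. The other 6 alternatives with all rats, and that without the 3 arrays of highest control level, also gave 0. Of the 25 most variable genes, 16 were shared with groups alone and 15 with the median absolute deviation; other alternatives shared 18 to 25 and single rats left out 20 to 25. Without the 3 arrays of highest control level, all of 24 h, the residual SD fell for some of the most variable genes and rose for others. It went from 0.82 to 0.37 for Acsm5, 1.12 to 0.62 for Acsm2, 0.86 to 0.59 for Cyp7a1 and 1.26 to 0.83 for Cxcl1. For Ugt2b it went from 1.47 to 1.72 and for Akr1b7 from 1.47 to 1.67. The brightest 25 shared 20 to 25. Pairs past the threshold, 2, became 0 with groups alone, 1 after quantile scaling and 1 to 2 without single rats. The differences of 36 named genes kept their sign in all 818 values over 23 alternatives, and 11 values passed the threshold. Many of these genes were named for their values in the same rats, most of which every alternative reuses. The kept signs are therefore no separate test of the differences. The cause of the shifts between alternatives was not tested. No paired analysis was possible because the labels give each rat its own identity and replicate numbers only name rats. Low signals could not be judged against background, since no detection values were used here.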
